A study of Mus musculus with 6 samples.

Results

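Open chromatin was examined across a stretch of mouse chromosome 18 chosen to hold the clustered protocadherin genes, that is, the Pcdha, Pcdhb and Pcdhg gene clusters. Their placement in it was not checked against an annotation of the same build. Members were taken by position alone: peaks of the 6 libraries sharing 1 bp or more were merged, and every merged region that touched 37050000 to 38000000 of chromosome 18 (GRCm39) was kept. This gave 174 regions of 259376 in the whole series. The first member starts at 37063121 and the last ends at 37993672. Just outside, a region from 37045884 to 37046003 was called in WT replicate 1 only, with 6 tags, and one from 38010272 to 38011156 was called in all 6 libraries with 45 to 74 tags. At the inner edges, the first member held 14 to 19 tags and the last 80 to 150.

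Clustered protocadherins are cell-surface adhesion proteins of the cadherin family, best known in neurons, where each cell displays its own set and branches of 1 cell recognise and avoid each other. Each first exon of the Pcdha and Pcdhg clusters has a promoter of its own and is spliced to constant exons that its cluster shares, whereas Pcdhb genes are made of single large exons. Promoter choice depends on the DNA-binding protein CTCF and on cohesin, which bring a promoter into contact with distant enhancers, and on DNA methylation that silences promoters. In the RefSeq order of chromosome 18, 14 Pcdha genes (Pcdha1 to Pcdhac2) come first, 22 Pcdhb genes (Pcdhb1 to Pcdhb22) follow, and 22 Pcdhg genes (Pcdhga1 to Pcdhgc5, with the transcribed pseudogene Pcdhgb8 among them) come last. Zmat2 precedes the 58 genes and Diaph1, an actin-regulating formin, follows them. Taf7, a subunit of the general transcription factor TFIID, and Slc25a2, a mitochondrial carrier, lie among them. The gene table used here has the older build GRCm38, so gene order is given but no region is assigned to a gene, a cluster or a following gene such as Diaph1, and no sequence of this chromosome is printed.

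The cells were E14TG2a, an established mouse embryonic stem cell line. They were grown with 15% serum, 1000 U/ml LIF, 1 µM of the MEK inhibitor PD0325901 and 3 µM of the GSK3 inhibitor CHIR99021, conditions that all 3 genotypes shared, and 10 µl of spike-in nuclei was added before transposition. The genotypes were wild type (WT), Alkbh5 KO, which lacks the RNA demethylase ALKBH5, and Alkbh5 del-cIDR, an allele without a part named cIDR (the series title gives intrinsically disordered regions as its subject), with 2 libraries each. ATAC-seq, in which a transposase inserts adapters into open DNA, measured accessibility. Whether a genotype is 1 clone, and whether replicates are separate cultures, is not stated, so the spread between replicates may be technical. Marker genes of the cell type were not analysed here, because gene positions of the files' build were not used.

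The mouse peak lists held 150680 to 193905 peaks, the longest 2 being those of WT, and an uncalled region is not shown to be closed. The height of a region is the number of tags (overlapping reads or fragments) at its summit. It was solved from the deposited fold and p of the peak, which are the authors' own values. Whether tags are reads or whole fragments is not given in the sources used here. Background, the tag level that the peak caller takes as unenriched, was 1.01 to 1.26 tags per library at its lowest. Heights were compared as log2 of the tags relative to the list's own median over regions called in all 6 libraries on 16 autosomes, without chromosomes 6, 8 and 11, which stood apart in the KO in an earlier look at these data. Those medians were 25 to 36 tags. Relative heights on the rest of chromosome 18 were -0.10 to -0.06 log2 in the 6 libraries.

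The protocadherin window was dense in open regions, and a larger share of them was called in all 6 libraries than over all mouse regions. Windows were not ranked by that share. Of the 174 members, 95 (54.6%) were called in all 6 libraries, against 38.3% of all mouse regions and 36.2% of the rest of chromosome 18. Another 35 (20.1%) were called in 1 library only, against 25.2% of all regions. Those called in 2, 3, 4 and 5 libraries numbered 10, 11, 8 and 15, or 5.75%, 6.32%, 4.6% and 8.62%, against 11.5%, 8.55%, 8.06% and 8.43% of all regions. Windows of 950 kb laid end to end over the autosomes and X held a median of 84 regions and 30 called in all libraries. Of these 2760 windows, 87.9% had fewer regions than the protocadherin window and 96.6% had fewer regions called in all libraries. On chromosome 18 alone, 93 of 95 such windows had fewer regions called in all libraries. These shares are descriptions of the window, with no test.

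**Figure D1:**
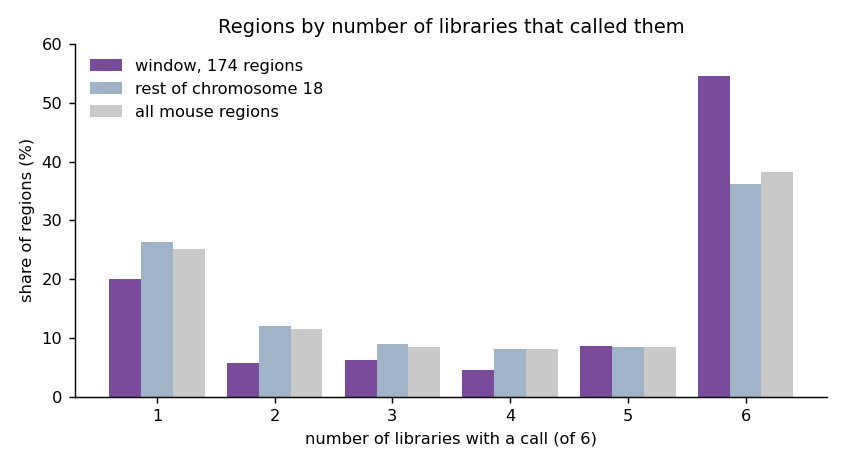
Share of regions (vertical axis, percent) by the number of libraries that called them (horizontal axis, 1 to 6), for the 174 regions of the window, the rest of chromosome 18 and all mouse regions. The bar for 6 libraries is at 54.6% for the window and at 38.3% for all mouse regions.

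Members called in all 6 libraries were wide. Their median width was 671 bp (211 to 2515 bp), against 555 bp for such regions in the whole series, and 70.5% were wider than 500 bp, against 59.6%. The widest, from 37153052 to 37155566, was low, with 15 to 22 tags in the 6 libraries. Summits of members called in all libraries lay within a median of 64 bp of each other, against 69 bp over all such regions, so their position repeated about as well as elsewhere. Members called in 1 library were narrow, at a median of 161 bp, and low, at a median of 11 tags and at most 25. Such regions over the whole series were alike, with medians of 159 bp and 8 tags.

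More members were called in WT than in the mutants. WT replicates 1 and 2 called 134 and 136 members, KO replicates 1 and 2 called 123 and 116, and del-cIDR replicates 1 and 2 called 131 and 125. Both WT libraries were above all 4 mutant libraries, and both del-cIDR libraries were above both KO libraries. List lengths had another order, with KO replicate 1 longer (164639 peaks) than both del-cIDR lists (157931 and 155128). As shares of the 174 members, these are 77.0% and 78.2% (WT), 70.7% and 66.7% (KO) and 75.3% and 71.8% (del-cIDR). The same libraries called 72.4% and 68.9%, 61.9% and 56.8%, and 59.4% and 58.4% of all mouse regions. Each library thus called a larger share of the window than of the genome. Per 10000 peaks of the list, the window held 7.74 and 7.79 peaks (WT), 7.90 and 8.10 (KO) and 8.86 and 8.64 (del-cIDR). On that scale both del-cIDR libraries lay above the other 4. The called peaks covered 58.5 and 58.4 kb (WT), 55.7 and 54.2 kb (KO) and 56.8 and 57.5 kb (del-cIDR). With 2 libraries against 2, an exact two-sided permutation test cannot give a p below 0.333, so none of these differences can pass 0.05.

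Spacing within the window was close and uneven. The median distance from the centre of one called member to the next was 4.08 and 3.88 kb (WT), 4.17 and 5.15 kb (KO) and 4.26 and 4.44 kb (del-cIDR). Over the genome the same libraries gave 6.76 and 6.68 kb, 7.50 and 8.33 kb, and 7.71 and 7.80 kb. Every library therefore had shorter distances in the window than over the genome. Of the distances in the window, 25.2% to 33.3% per library were under 2 kb, against 12.7% to 16.6% over the genome. Distances over 20 kb made up 8.27% to 10.4% in the window and 15.8% to 21.7% over the genome. Mean spacing in the window was longer in both KO (7.62 and 8.08 kb) and both del-cIDR libraries (7.15 and 7.50 kb) than in WT (6.99 and 6.89 kb). The median was 4.66 ± 0.694 kb in KO and 4.35 ± 0.133 kb in del-cIDR against 3.98 ± 0.141 kb in WT (SD, n = 2; exact permutation p = 0.333 for each, two-sided, the smallest possible). KO minus WT (0.68 kb) was 1.45 kb without KO replicate 1 and 0.24 kb without KO replicate 2. Against WT, del-cIDR (0.37 kb) gave 0.62 and 0.13 kb without WT replicates 1 and 2, and 0.71 kb without KO replicate 1, which changes the merged regions. With lists of equal length the order turned, to -0.20 kb for KO minus WT and -0.14 kb for del-cIDR minus WT, so the direction changed with the number of peaks kept.

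**Figure D2:**
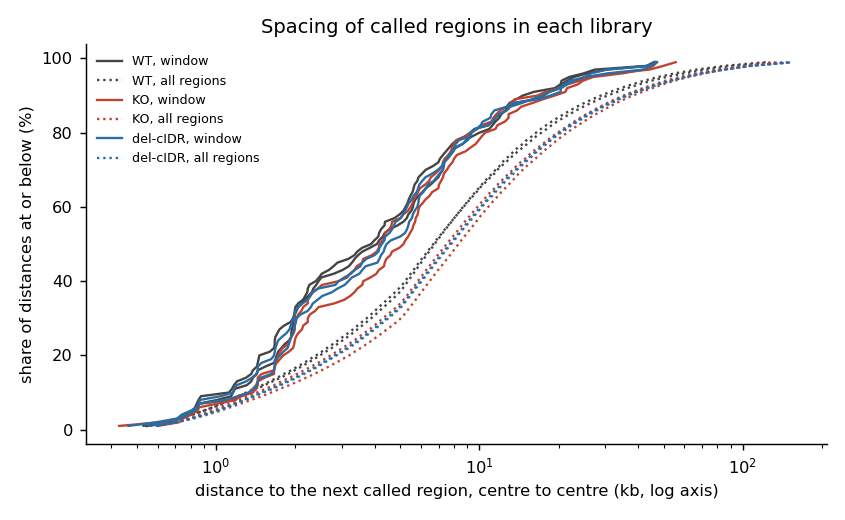
Cumulative share of distances (vertical axis, percent) against the distance from one called region to the next (horizontal axis, kb, log scale), 1 line per library, solid for the window and dotted for all mouse regions. The solid lines lie to the left of the dotted ones for all genotypes, with medians of 3.88 to 5.15 kb in the window and 6.68 to 8.33 kb over the genome.

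The 95 members called in all libraries were 5.92 kb apart at the median, against 11 kb for such regions over the genome and 12.3 kb on the rest of chromosome 18. Long stretches without them broke the window. The longest, 68.8 kb from centre to centre, lies between the regions from 37153052 to 37155566 and from 37222732 to 37223483 and holds only 2 members called in part of the libraries. Next come 56.6 kb between 37490180-37490566 and 37546605-37547270, with 4 such members, and 52.1 kb between 37224975-37225206 and 37276451-37277860, with none. Gaps of 46.8 and 42.7 kb, each with no member inside, lie after the region from 37350997 to 37351543 and after the one from 37708855 to 37709385.

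At the low-coordinate end, neighbouring open regions often lay close together. In the first 100 kb of the window, 9 of 26 distances between neighbouring members (34.6%) fell between 1.0 and 1.6 kb, against 9.83% over the whole window and 8.22% over all mouse regions. Between members called in all libraries, 4 of 13 distances (30.8%) did, against 5.32% and 3.9%. The stretch was picked after its regions had been seen, the range was not planned beforehand, and pairs as such were not counted. One pair is made of the regions from 37080508 to 37081540 and, before it, from 37079107 to 37079764. The first of these held 41 and 38 tags (WT), 38 and 29 (KO) and 31 and 34 (del-cIDR), and was called throughout. Its partner held 12 tags in WT replicate 2, 16 and 12 in del-cIDR, and had no call in the other 3 libraries. Another pair lies at 37125683-37126177 and 37126863-37127804, whose values are given further on. In both pairs the regions were closer to each other than to any other member.

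Heights were greater in the distal part of the window. In the first 500 kb, 13 of 34 members called in all libraries stood above the reference median, and in the remaining 450 kb, 40 of 61 did. Median relative height in the first 500 kb was -0.39 and -0.29 log2 (WT), -0.41 and -0.25 (KO) and -0.45 and -0.20 (del-cIDR). In the rest of the window it was 0.25 and 0.42, 0.57 and 0.44, and 0.29 and 0.26. All 6 libraries were thus higher in the distal part, and no library of the proximal part overlapped one of the distal part. These heights are tags and are not divided by local background. Height over local background was not compared between the parts, so greater enrichment in the distal part is not shown. Members called in all libraries were also denser there, at 13.6 per 100 kb against 6.8. Local background at the members' peaks went the same way, with medians of 1.17 to 1.93 tags in the first 250 kb and 3.03 to 3.90 tags in the last 250 kb, against 1.37 to 1.73 tags over all regions. A peak needs more tags to be called where the background is high: members called in 1 library held 7 to 11 tags between 37100000 and 37149999 and 15 to 25 tags between 37850000 and 37899999.

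**Figure D3:**
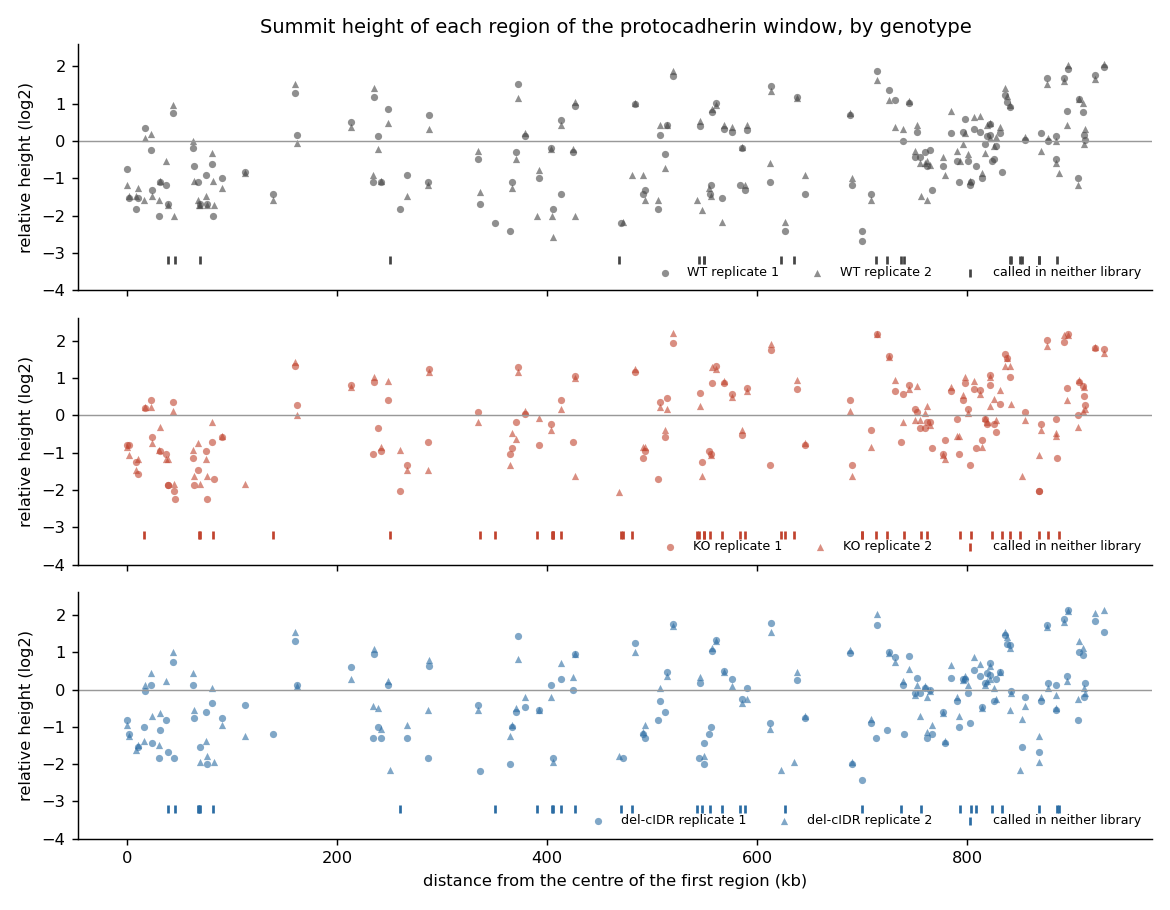
Relative summit height (vertical axis, log2 of tags over the list's reference median) of each member along the window (horizontal axis, kb from the centre of the first region), 1 panel per genotype, circles for replicate 1 and triangles for replicate 2. Ticks at the bottom mark members that neither library of that genotype called. Points above 0 are more common at the right than at the left in all 3 panels, with points below 0 throughout.

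The tallest members sat in the distal part. The highest by mean relative height, from 37959070 to 37959840, held 123 and 149 tags (WT), 148 and 111 (KO) and 141 and 133 (del-cIDR), which is above 93.0% to 95.2% of the regions called in all libraries of each list. It stands on a high local background of 10.05 to 12.54 tags, with a deposited fold of 10.14 to 12.13. The region from 37776884 to 37777617 followed, with 118 and 112 tags (WT), 150 and 114 (KO) and 107 and 127 (del-cIDR). Its local background was lower, at 3.01 to 3.73 tags, and its deposited fold was 24.33 to 31.9. In its 6 lists the summit moved by no more than 4 bp. Next was the region from 37582605 to 37583201, with 106 and 132, 126 and 116, and 108 and 100 tags. Of the 10 tallest, 9 lie beyond 37550000. The exception, from 37222732 to 37223483, held 78 and 104 tags (WT), 82 and 68 (KO) and 79 and 90 (del-cIDR). Its summit lay within 1 bp in all 6 libraries. With 1 neighbour, from 37224975 to 37225206, it lies between 2 of the long gaps. In relative height its genotypes overlapped, at 0.01 log2 for del-cIDR minus WT and -0.03 for KO minus WT. The last member, from 37992932 to 37993672, with 127 and 150 tags (WT), 113 and 80 (KO) and 93 and 135 (del-cIDR), was the only 1 of the 10 in which both KO libraries lay below both WT libraries in relative height.

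Median height over the window did not separate KO from WT. In bulk libraries, a lower height from fewer cells with the site open and one from less opening in each cell cannot be told apart. Over the 95 members called in all libraries, median relative height was 0.17 and 0.22 log2 in WT, 0.31 and 0.16 in KO, and 0.13 in each del-cIDR library. The KO libraries lay on either side of WT, and both del-cIDR libraries lay below. KO minus WT was 0.04 log2 (0.238 ± 0.106 against 0.196 ± 0.037, SD, n = 2; exact permutation p = 1.000, two-sided). For del-cIDR minus WT it was -0.065 log2 (0.131 ± 0.003 in del-cIDR; exact permutation p = 0.333, two-sided). The direction of KO minus WT turned without KO replicate 1, to -0.11. That of del-cIDR minus WT turned without del-cIDR replicate 2, to 0.04, and without KO replicate 2, to 0.02, which leaves another set of members. Libraries of 1 genotype differed at a single member by a median of 0.19 log2 in WT, 0.19 in KO and 0.18 in del-cIDR.

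Taken region by region, KO minus WT had a median of 0.15 log2 over the 95 members (quartiles -0.11 and 0.35), beside 0.13 over all 99216 regions. The value over all regions depended on how the lists were scaled. Scaled by the median log ratio, it was 0.04, beside 0.06 over the members. Members are to be read against the value over all regions. The 2 KO libraries lay above both WT libraries at 41 of 95 members (43.2%), against a background of 40.6%, and below both at 16 (16.8%), against 20.6%. With lists scaled by their median log ratio instead, the counts were 28 and 23, beside 33.1% and 26.2% of all regions. Differences of at least 0.5 log2 without overlap were found at 13 members upward (13.7%, background 16.7%) and 4 downward (4.21%, background 9.88%). These shares of members are near or below the background. Without WT replicate 2, KO replicate 1 or KO replicate 2, members where KO lay below WT became 25, 33 and 25. With a library left out, KO lay above WT at 39 to 55 members, depending on the library. Fewer libraries overlap less often, and regions are merged and scaled anew in each such setting. No share over all regions is given for these counts, so they have no background.

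For del-cIDR minus WT the median was 0.07 log2 over the members (quartiles -0.11 and 0.22), beside 0.01 over all regions. Its sign is opposite to that of the difference between the median heights, -0.065 log2. Of the 95 members, 35 (36.8%) were lower in del-cIDR than in WT, against 48.2% of all regions. The direction for del-cIDR thus depended on the summary used. Both del-cIDR libraries lay above both WT libraries at 29 members (30.5%), against a background of 22.9%, and below at 15 (15.8%), against 21.3%. Members above became 46 to 51 where WT replicate 1 or 2 or del-cIDR replicate 1 or 2 was left out. Members below became 27 without WT replicate 1 and 26 without del-cIDR replicate 1. These counts, too, have no share over all regions beside them. Differences of at least 0.5 log2 without overlap numbered 3 upward (3.16%, background 3.94%) and 3 downward (3.16%, background 6.12%). Between the mutants, del-cIDR was above KO at 16 members (16.8%, background 20.1%) and below at 31 (32.6%, background 39.5%). All 4 mutant libraries exceeded both WT libraries at 22 members (23.2%), against 13.9% of all regions, and fell below them at 6 (6.32%), against 8.03%. With the other scaling these were 15 members (15.8%, beside 11.8%) and 8 (8.42%, beside 10.1%). KO was lower and del-cIDR higher than WT at 2 members (2.77% of all regions), and the reverse held at 2 (5.79% of all regions). Both mutant comparisons share the same WT libraries.

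**Figure D4:**
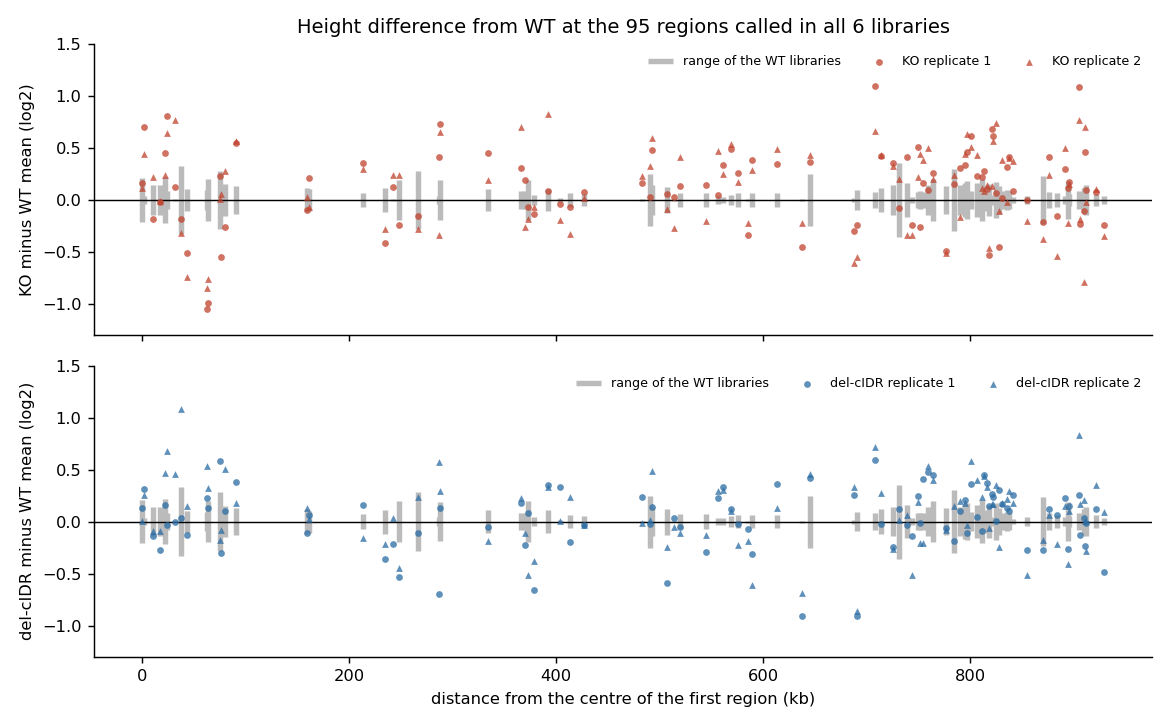
Relative height of each mutant library minus the WT mean (vertical axis, log2) at the 95 members called in all libraries, along the window (horizontal axis, kb from the centre of the first region), with the range of the 2 WT libraries as grey bars. The lowest KO points, at -0.94 and -0.88 on average, form a pair near the left end, where del-cIDR points lie at or above WT.

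The KO libraries were low over 1 proximal stretch, from 37100000 to 37149999. Of its 7 members called in all libraries, 5 had a lower mean relative height in KO than in WT and all 7 had a higher one in del-cIDR than in KO. Over all regions, 38.1% were lower in KO than in WT, and 61.8% were lower in del-cIDR than in KO. The members are neighbours measured in the same libraries and are not replicates. Median relative height there was -0.68 and -0.53 log2 (WT), -1.04 and -1.18 (KO) and -0.61 and 0.05 (del-cIDR), so both KO libraries lay below the other 4. The median of the region differences was -0.26 log2 for KO minus WT and 0.22 for del-cIDR minus WT. Among the 19 bins of 50 kb along the window, the next lowest for KO minus WT was -0.06, from 37400000 to 37449999. Local background at the called peaks of this stretch, divided by the library's own lowest background, was 1.45 and 1.47 (WT), 1.01 and 1.08 (KO) and 1.66 and 1.69 (del-cIDR). It is set by the same reads and is no separate support. The numbers of calls did not follow, at 11 and 14 (WT), 13 and 11 (KO) and 10 and 9 (del-cIDR). The stretch was singled out after its values were seen, and the test of 2 against 2 libraries cannot go below an exact permutation p of 0.333.

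The largest KO difference of the window lies in this stretch, at 37125683-37126177. It held 28 and 36 tags (WT), 15 and 13 (KO) and 35 and 42 (del-cIDR). Both KO libraries were below all others, and in relative height both del-cIDR libraries were above WT. Mean relative height was -1.04 ± 0.14 log2 in KO, -0.10 ± 0.14 in WT and 0.28 ± 0.22 in del-cIDR (SD, n = 2), a difference of -0.94 for KO minus WT and 0.38 for del-cIDR minus WT. Exact Poisson 95% intervals, which cover counting error only, run from 8.40 to 24.7 tags in KO replicate 1 and from 18.6 to 40.5 in WT replicate 1. Without any 1 library the KO difference was -1.04 to -0.85, and it was -0.73 with the deposited fold as height. The region was picked for its difference in these same data, so the kept sign is no separate support.

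Its neighbour, from 37126863 to 37127804, held 20 and 17 tags (WT), 9 and 8 (KO) and 19 and 21 (del-cIDR). KO was again below all other libraries, with -0.88 log2 for KO minus WT, and del-cIDR overlapped WT. Its counts are small: the interval of 8 tags in KO replicate 2 reaches from 3.45 to 15.8. A taller region before them, from 37107008 to 37107717, held 54 and 70 tags (WT), 42 and 27 (KO) and 53 and 62 (del-cIDR). KO minus WT was -0.63 log2 there, and del-cIDR minus WT 0.01. With the deposited fold as height the 2 KO differences were -0.54 and -0.33. Beyond the stretch, the region from 37175735 to 37175986 had heights of 18 and 20 tags in the WT pair and 24 and 13 in the del-cIDR pair. In KO it had 7 tags in replicate 2 and no call in replicate 1.

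Elsewhere in the window, a few members stood apart in both mutants or in 1 of them. From 37701074 to 37701810, heights were 72 and 80 tags (WT), 54 and 48 (KO) and 38 and 43 (del-cIDR). All 4 mutant libraries were lower, by -0.34 log2 in KO and -0.80 in del-cIDR on the relative scale. The low region from 37753923 to 37754220 had the same order, with 14 and 18, 13 and 8, and 8 and 8 tags, and -0.88 log2 for del-cIDR minus WT. Just before it, the region from 37751628 to 37752046 went apart in the mutants, with 52 and 60 tags (WT), 44 and 27 (KO) and 63 and 64 (del-cIDR). KO minus WT was -0.46 log2 and del-cIDR minus WT 0.29 at that region.

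Some low members had higher values in both mutants. From 37771235 to 37772019, 12 and 12 tags in WT stood against 25 and 14 (KO) and 17 and 18 (del-cIDR), or 0.88 and 0.65 log2 above WT. At 37968438-37968897 the tags were 16 and 16 (WT), 33 and 20 (KO) and 18 and 26 (del-cIDR), or 0.92 and 0.54 log2 above WT. The last value was 0.84 without del-cIDR replicate 1 and 0.30 without del-cIDR replicate 2. The KO replicates lay apart at both, at -0.40 and -0.84 log2 in relative height at the first and 0.00 and -0.32 at the second. A taller region, from 37350997 to 37351543, held 52 and 45 tags (WT), 78 and 56 (KO) and 50 and 54 (del-cIDR), 0.69 log2 above WT in KO. The other 10 KO increases of this size were 0.50 to 0.72 log2. The fourth KO decrease, from 37840074 to 37840986, was -0.51, with 20 and 27 tags in WT against 16 and 12. For del-cIDR the remaining differences were 0.51 at 37822833-37823192, where 33 tags in each library stood against 26 and 24 in WT, and -0.51 at 37442290-37442954, where 23 and 27 stood against 35 and 42. A member without a call in KO replicate 2, from 37302653 to 37303002, held 35 and 31 tags in WT, 26 in KO replicate 1, and 16 and 22 in del-cIDR.

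**Figure D5:**
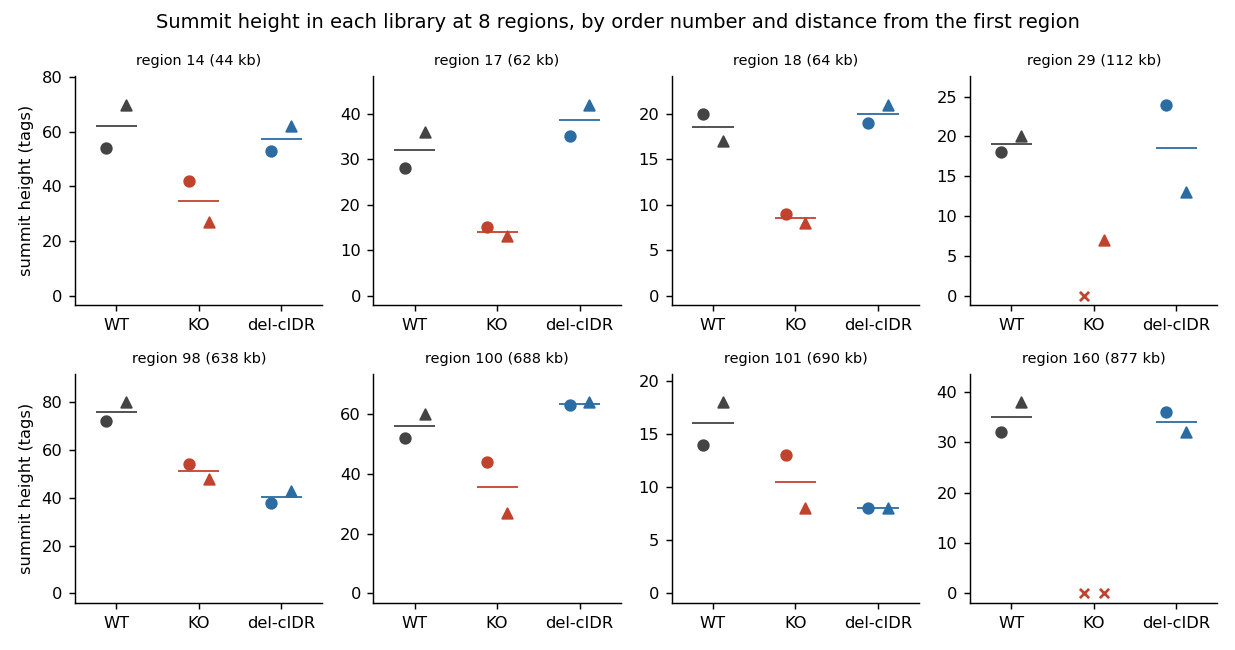
Summit height (vertical axis, tags) in each library at 8 members, numbered by their order in the window with the distance from the first region in kb, by genotype (horizontal axis), circles for replicate 1, triangles for replicate 2, bars for the mean where both libraries called the region. A cross at 0 marks a library without a call. The KO mean is lowest or a KO call is missing in 6 panels, and the del-cIDR mean is lowest in the other 2. The 8 were picked after their values were seen, as members lower or without a call in a mutant. They do not represent the window: KO differences of at least 0.5 log2 without overlap were 13 upward, none of them drawn, and 4 downward.

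Calls that separated genotypes were few. Regions called in both WT libraries and neither KO library numbered 8 of 174 (4.6%), against a background of 7.22% of all regions. The converse held for 1 member (0.575%, background 1.89%). For WT and not del-cIDR there were 5 (2.87%, background 5.33%), and for del-cIDR and not WT 4 (2.3%, background 0.931%). Between the mutants, 3 members were called in KO and not del-cIDR (1.72%, background 3.5%) and 6 in del-cIDR and not KO (3.45%, background 3.59%). WT alone had 4 members (2.3%, background 2.65%), KO alone 0 (background 1.19%) and del-cIDR alone 1 (0.575%, background 0.453%). With lists of equal length, WT not KO became 3 and KO not WT 4, so the direction changed with list length. Without WT replicate 1, WT replicate 2 or KO replicate 1, WT not KO was 21, 19 and 16, and KO not WT was 4, 5 and 5, and without KO replicate 2 the latter was 6. WT not del-cIDR was 17 without either WT library and 12 without del-cIDR replicate 1, and del-cIDR not WT was 8 to 12 without any 1 of these genotypes' libraries. WT alone had 14 and 13 members without WT replicates 1 and 2 and 6 without del-cIDR replicate 1. KO alone had 5 without KO replicate 2 and at most 1 without any other library. Members in del-cIDR alone numbered 8 when its replicate 1 was left out, 6 when its replicate 2 was, 2 and 4 without WT replicates 1 and 2, and 3 without KO replicate 2. A call from 1 library is an easier condition than a call from 2, for every region of the genome. The background shares above hold only for the full lists of all 6 libraries. Counts under the other settings have no such share beside them, so they are no result about the window.

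The highest member that both KO libraries lacked lies from 37940542 to 37940795, at 0.00 to 0.17 log2 from the reference median. It held 32 and 38 tags in the WT pair and 36 and 32 in the del-cIDR pair, and neither KO library called it. The region is 254 bp wide, its summit agreed within 2 bp in the 4 lists, and it stands on a high local background of 5.02 to 5.43 tags. A member only 153 bp wide, from 37905073 to 37905225, was called with 31 tags in KO replicate 2 and with 31 and 29 in del-cIDR, and not in KO replicate 1 or WT.

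The other members missing in KO were low. From 37202557 to 37202774 the WT libraries held 12 tags each and del-cIDR replicate 1 held 14. From 37133109 to 37133351, 10 and 11 tags in the WT pair and 11 and 8 in the del-cIDR pair stood against no call in KO. WT alone called the regions from 37145248 to 37145566 (8 and 17 tags), 37629936 to 37630494 (11 and 8), 37651296 to 37651638 (13 and 16) and 37689332 to 37689659 (6 and 8). The last of the 8, from 37399096 to 37399431, had WT heights of 10 and 14 tags and 7 in del-cIDR replicate 1.

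Other gains were low. The only member called in all 4 mutant libraries and in neither WT library lies from 37931970 to 37932241, with 8 and 12 tags in both KO libraries and 10 and 13 in both del-cIDR libraries; 0.194% of all regions had that pattern. From 37915099 to 37915589 del-cIDR held 11 and 18 tags and KO replicate 2 held 8. The region from 37612759 to 37613115 was called in del-cIDR alone, with 12 and 9 tags. Both WT and both KO libraries, and no del-cIDR library, called the region from 37131021 to 37131525, with 15 and 12 tags in the former and 12 and 15 in the latter. KO also had 2 low members that del-cIDR lacked and 1 WT library had: 37323419-37323618, with 8 and 13 tags in KO, and 37610813-37611045, with 14 and 8. Besides those named, del-cIDR had 3 members that KO lacked and 1 WT library called, namely 37079107-37079764, 37468587-37469132 with 9 and 8 tags, and 37824547-37824817 with 13 and 14 tags.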

How the data were processed

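ATAC-seq was measured in 6 libraries of E14TG2a cells, 2 for each of 3 genotypes named in the sample titles. The submitters' processing notes name MACS2, BWA, fastp, Picard, featureCounts and SAMtools, and the build GRCm39. Tool versions, settings and any shift to the cut site: not given in the sources used here. The authors deposited 1 peak list per library, with a fold ratio, −log10 of p and q, and a score for each peak. The summit offset is a deposited count of bases. No peak has a q above 0.05.

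Tags at each summit were solved from the deposited fold and −log10 p in MACS2's form (fold with 1 added to pileup and background, Poisson p). All 1016776 peaks gave a whole number within 0.1. Peaks on the sequence named dm were left out as spike-in. They numbered 1679 and 1568 (WT), 2082 and 1977 (KO) and 1199 and 1104 (del-cIDR). Heights were not scaled to them, so a change common to all regions of a list does not show in relative heights and was not tested. Merging, calls, heights and spacing were computed in Python 3.11.15 with NumPy 2.4.6, pandas 2.3.3 and SciPy 1.17.1, and checked on simulated peaks. Exact permutation tests ran over libraries. Depth is known only through tag heights, and Poisson intervals cover counting error only and treat tags as independent counts.

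The window, its members, the lists and the bins were chosen with earlier results of these data known. Regions named in the text are those whose calls separated 2 genotypes, among the 10 tallest, or with a difference of 0.5 log2 without overlap, the last added after seeing the data. Others (window and gap edges, pairs, members where the mutants lay on opposite sides of WT, and members with a missing call) were also chosen after their values were seen. Planned promoter counts, gene lists, motif counts and cell type markers were not analysed here, because no gene positions or sequence of GRCm39 were used.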

Additional observations from a re-analysis of the deposited data

Results flagged for a closer look

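At 4 members all KO libraries lay on one side of both WT libraries in relative height and all del-cIDR libraries on the other, which 2.77% (KO lower) and 5.79% (KO higher) of all regions called in every library also did. The region from 37125683 to 37126177 differed from WT by -0.94 log2 in KO and 0.38 in del-cIDR. The region from 37751628 to 37752046 differed by -0.46 in KO and 0.29 in del-cIDR. The other direction held from 37652824 to 37653798, with 0.34 in KO and -0.45 in del-cIDR, and from 37788555 to 37789089, with 0.35 in KO and -0.25 in del-cIDR. The difference between the mutants' effects was not tested, and both share the WT libraries.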

How the results depend on the processing

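Peak lists alone, 2 libraries per genotype and low tag numbers limit these results: no test could pass 0.05, and a call near the limit comes and goes with depth. With a −log10 q of at least 5, members called in WT not KO numbered 5, KO not WT 2, WT not del-cIDR 2, del-cIDR not WT 1, KO not del-cIDR 1, del-cIDR not KO 3 and both mutants not WT 0, and del-cIDR minus KO spacing was 0.02 kb. With equal list length, WT not KO was 3, KO not WT 4, WT not del-cIDR 2 and both mutants not WT 2, KO minus WT height was -0.03 log2, and spacing was -0.20 kb (KO minus WT), -0.14 kb (del-cIDR minus WT) and 0.05 kb (del-cIDR minus KO). Height of del-cIDR minus WT was 0.03 log2 from the deposited fold. KO minus WT was -0.01 with all autosomes as reference and -0.05 with median log ratio scaling, which was chosen after seeing the data. Except where this construction shows it (fewer peaks), the cause was not tested. Shares over all regions are not given for the call counts under these settings.

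Leaving out 1 library at a time, members called in WT and missing in KO numbered 8 to 21 and the converse 1 to 6; against del-cIDR, WT had 5 to 17 and lacked 4 to 12, and KO had 3 to 9 and lacked 6 to 15; both mutants without WT had 1 to 3. Heights without overlap ranged from 39 to 55 (KO higher), 17 to 33 (KO lower), 29 to 51 (del-cIDR higher) and 15 to 27 (del-cIDR lower) members. Fewer libraries overlap less often by construction, and regions are merged and scaled anew. No share over all regions is given for the call and height counts with a library left out. Median height ranged from -0.11 to 0.14 log2 (KO minus WT), -0.05 to 0.04 (del-cIDR minus WT) and -0.12 to 0.07 (del-cIDR minus KO). It turned without KO replicate 1 (-0.11 and, for del-cIDR minus KO, 0.07), KO replicate 2 (0.02 for del-cIDR minus WT) and del-cIDR replicate 2 (0.04 and, minus KO, 0.01). Spacing of del-cIDR minus KO ranged from -0.74 to 0.19 kb, the last without KO replicate 2. The 24 height differences from WT of 0.50 log2 or more (rounded, without overlap) at members called in all libraries, not all of them named in the text, kept their sign in all 304 alternative values. They were picked from these same data because their libraries did not overlap. That choice nearly fixes the sign when 1 library is left out, so the kept sign is no separate support. Spacing ranged from 0.24 to 1.45 kb (KO minus WT) and 0.13 to 0.71 kb (del-cIDR minus WT).

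With replicate number as a block, the height differences were 0.04 (exact sign-flip p = 1.000), -0.06 (p = 0.5) and -0.11 log2 (p = 0.5), against a smallest possible p of 0.5. The numbers share only a number: replicate differences correlated over the 95 members by 0.03 (KO and WT), 0.21 (del-cIDR and WT) and -0.07 (del-cIDR and KO), a description over regions. Alternatives for promoters were not run.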
